A study of Mus musculus with 8 samples.

Results

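Cpt1a and the genes of mitochondrial fatty acid oxidation were followed in the cortices of Mboat7 KO embryos. The set holds 10 genes, Cpt1a, Slc25a20, Cpt2, Acadvl, Acadl, Acadm, Hadha, Hadhb, Hadh and Ppara, of 23420 genes in the E11.5 count table and 78298 in the E12.5 count table, and all 10 are listed in both. The set was selected on E12.5 values: Cpt1a was higher in the Mboat7-/- cortices at that stage, and the other 9 genes were taken for their known place in the same pathway, so as to see whether they followed Cpt1a. Their E12.5 values are therefore given as a description without a test, whereas the E11.5 comparison was not used for the choice and was tested. Poly(A) RNA was sequenced from 1 cortex per embryo in 4 groups of 2 embryos, Mboat7+/- and Mboat7-/- at E11.5 and Mboat7+/- and Mboat7-/- at E12.5. All embryos were C57BL/6N, Mboat7-/- is a global knockout of both alleles, and the Mboat7+/- controls also carry 1 null allele, so no wild-type cortex was included. The E11.5 and E12.5 libraries came from different providers, sequencers and annotations, and the stages were not compared with each other. A cortex at these stages is a mixture of cells, in which fewer cells of a type and less RNA per cell cannot be told apart.

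Long-chain fatty acids cannot cross the inner mitochondrial membrane as acyl-CoA. CPT1 on the outer membrane, of which Cpt1a encodes the widespread form, moves the acyl group onto carnitine, the carrier encoded by Slc25a20 brings the acylcarnitine inside, and Cpt2 encodes the enzyme that restores acyl-CoA in the matrix. Each turn of beta-oxidation then uses an acyl-CoA dehydrogenase, a hydratase, a hydroxyacyl-CoA dehydrogenase and a thiolase. Malonyl-CoA, the product of acetyl-CoA carboxylase, inhibits CPT1, and PPARalpha, a nuclear receptor that binds DNA with RXR, activates many of these genes in liver.

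Depth was alike across cortices, with between 21843330 and 28189771 counts per cortex at E11.5 and between 20799311 and 23330432 at E12.5. Levels are given as CPM, the counts of a gene relative to the TMM-normalized library size, and a count of 3 in 1 cortex, taken as the floor, corresponded to between 0.106 and 0.144 CPM. The edgeR quasi-likelihood test compared 14935 genes at E11.5 and 16326 at E12.5. As a check of the genotypes, Mboat7 was at 32.3 and 33.1 CPM in the E11.5 Mboat7+/- cortices and at 39.0 and 34.8 CPM in the cortices carrying the label Mboat7-/- (log2 fold change 0.17, SE 0.11, edgeR adjusted p = 0.527). At E12.5 it was at 35.5 and 36.2 CPM against 31.7 and 32.2 CPM, a log2 fold change of -0.17 (SE 0.10, edgeR adjusted p = 0.958). Both E11.5 cortices labelled Mboat7-/- thus lay slightly above their controls and both E12.5 ones slightly below, neither difference passed the test, and which exons the null allele lacks was not analysed here, so every direction below rests on the genotype in the labels. Xist had 17875 counts in the first E11.5 Mboat7+/- cortex while none of the other 7 cortices had over 2. The cortical markers Emx1, Emx2, Lhx2 and Pax6 passed the filter at both stages, and cortical markers are given by genotype with the other markers further below.

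At E12.5, Cpt1a (ENSMUSG00000024900) stood alone among the oxidation genes in the size of its difference. Its level was 31.7 and 35.4 CPM in the Mboat7+/- cortices and 49.4 and 52.6 CPM in the Mboat7-/- cortices, with counts from 661 to 1192. Both Mboat7-/- cortices lay above both Mboat7+/- cortices. The means were 33.5 ± 2.56 and 51.0 ± 2.27 CPM (SD, n = 2), which is a fold of 1.52 and a log2 fold change of 0.60 with a standard error of 0.10. The log2 difference was 0.64 between the cortices of replicate 1 and 0.57 between those of replicate 2. Of all genes tested at E12.5, 508 (3.11%) had a larger log2 fold change than Cpt1a.

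At E11.5, Cpt1a was at 34.9 and 22.6 CPM in the Mboat7+/- cortices and at 38.7 and 28.0 CPM in the Mboat7-/- cortices. The genotypes overlapped, since in each of them the cortex of replicate 1 was higher than that of replicate 2. The log2 fold change was 0.22 (SE 0.22, 95% interval -0.28 to 0.72, edgeR adjusted p = 0.694), and the log2 difference was 0.15 within replicate 1 and 0.31 within replicate 2. The direction reversed on leaving out 1 cortex, to -0.055 without Mboat7+/- replicate 2 and to -0.030 without Mboat7-/- replicate 1. The interval includes the value of 0.60 described at E12.5, so a difference of that size was neither shown nor excluded at E11.5.

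**Figure D1:**
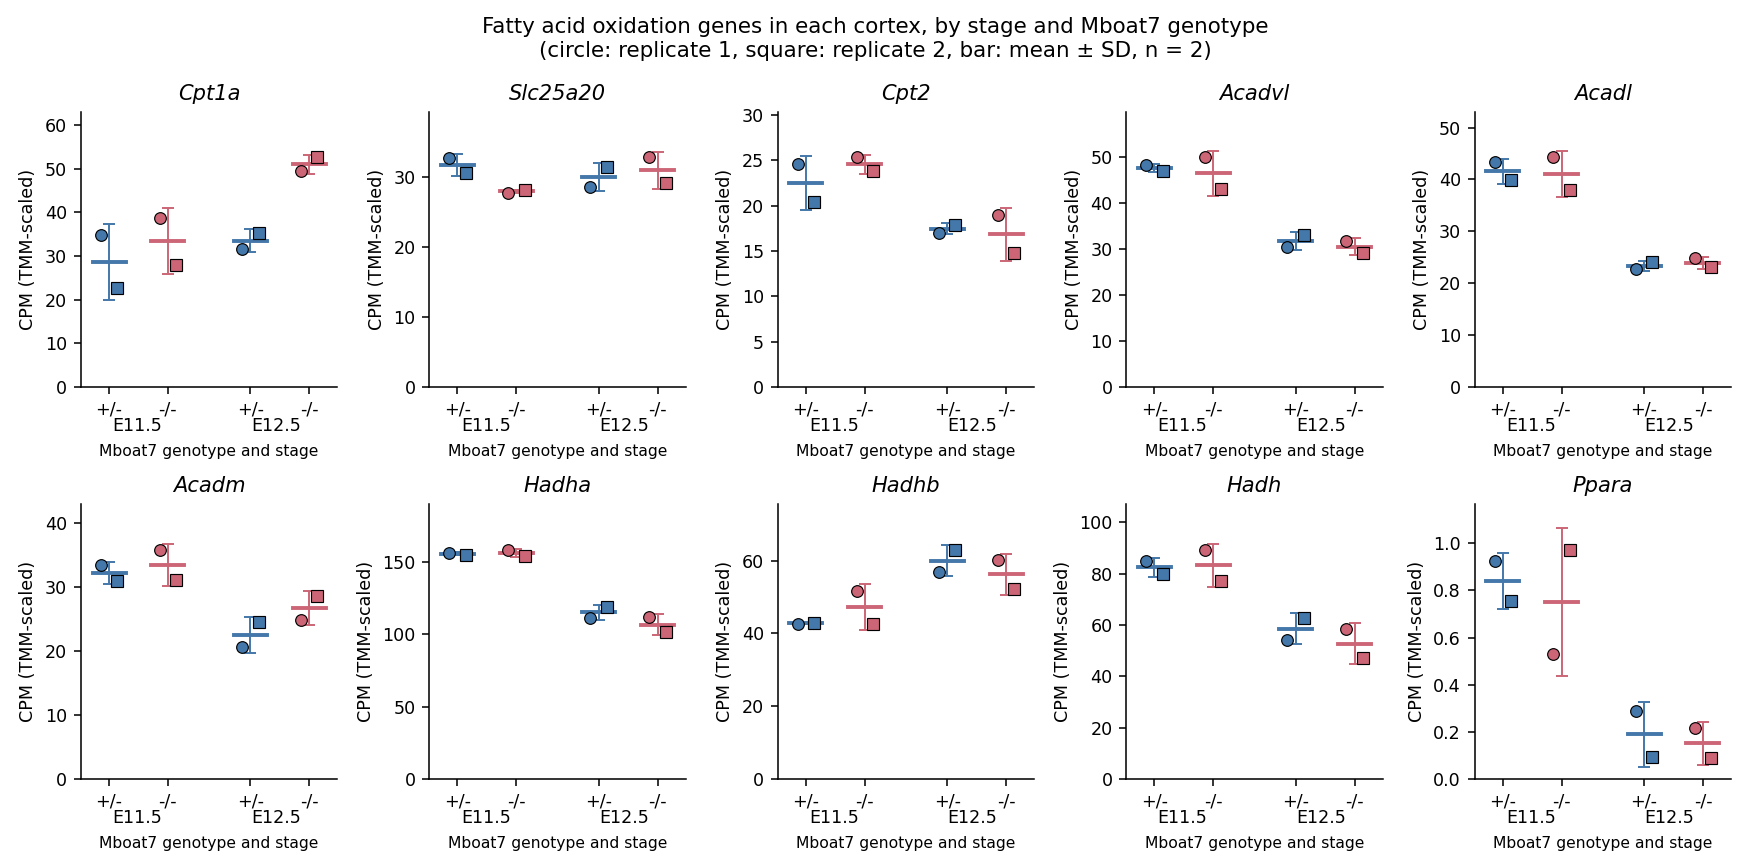
CPM of each oxidation gene (vertical axis, from 0) in each cortex by stage and genotype (horizontal axis); circles are replicate 1, squares replicate 2, horizontal lines the mean and error bars the SD of 2 cortices. Cpt1a at E12.5 runs from 31.7 and 35.4 CPM in Mboat7+/- to 49.4 and 52.6 CPM in Mboat7-/-, Acadm is also apart at E12.5, Slc25a20 is apart at E11.5, and elsewhere the genotypes overlap.

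The promoter of Cpt1a is shown because PPARalpha and RXR are known to bind copies of the motif AGGTCA, and because Cpt1a is the member whose difference the set was chosen for. The letters are from RefSeq, build GRCm38.p6, plus strand, chr19:3323051-3323284, a stretch of 234 bases within the 250 before the start of transcription. Capitals mark AGGTCA or its reverse complement TGACCT.
Cpt1a: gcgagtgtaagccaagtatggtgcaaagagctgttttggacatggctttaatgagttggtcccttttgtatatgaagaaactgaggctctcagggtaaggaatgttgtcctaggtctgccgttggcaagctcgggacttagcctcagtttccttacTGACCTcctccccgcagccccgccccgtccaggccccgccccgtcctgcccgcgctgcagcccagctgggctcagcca
The motif was searched on both strands in the 250 bases before the start of each member, and was found once each in Cpt1a, Acadm and Acadvl. These are 3 of 10 members (30%), against 14.0% of 32851 promoter windows of the same length. The window of Ppara and those of the other 6 members held no copy. The tandem form, 2 copies of AGGTCA in the same direction with any 1 base between them, was in 0 of the 10 members and in 0.0335% of all windows. A match describes the letters only.

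The other parts of the carnitine shuttle did not follow Cpt1a at E12.5. Slc25a20, the carnitine-acylcarnitine carrier, was at 28.6 and 31.5 CPM in the Mboat7+/- cortices and at 32.8 and 29.1 CPM in the Mboat7-/- cortices. The genotypes overlapped, and the log2 fold change was 0.045 with a standard error of 0.11. Cpt2, the carnitine palmitoyltransferase of the inner membrane, was at 17.0 and 17.9 CPM against 18.9 and 14.8 CPM. The Mboat7-/- cortices held both the highest and the lowest value of Cpt2, and its log2 fold change was -0.048 with a standard error of 0.15.

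The ratio of Cpt1a to Cpt2 within a cortex does not depend on library size. At E12.5 this ratio of CPM was 1.87 and 1.98 for Mboat7+/- and 2.61 and 3.56 for Mboat7-/-, so the genotypes did not overlap. At E11.5 it was 1.42 and 1.11 against 1.53 and 1.18, and they overlapped. The ratio of Cpt1a to the geometric mean of the other 8 members without Ppara gave the same order: 0.901 and 0.911 for Mboat7+/- at E12.5 against 1.29 and 1.52 for Mboat7-/-, and 0.716 and 0.494 at E11.5 against 0.771 and 0.621. Both ratios have Cpt1a as the numerator, so at E12.5 they repeat the difference that chose the set. They are a description and no further test of Cpt1a.

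At E11.5, Slc25a20 was at 32.8 and 30.6 CPM in the Mboat7+/- cortices and at 27.8 and 28.2 CPM in the Mboat7-/- cortices. The genotypes did not overlap and the Mboat7-/- cortices were the lower ones, opposite to Cpt1a, but the log2 fold change of -0.18 (SE 0.11) did not pass the test (edgeR adjusted p = 0.530). Slc25a20 was the single member of 10 without overlap at E11.5, a share of 10%, where 23.3% of all genes tested had both Mboat7-/- cortices below and 23.1% both above. Cpt2 was at 24.6 and 20.4 CPM against 25.3 and 23.8 CPM, a log2 fold change of 0.13 (SE 0.14, edgeR adjusted p = 0.728). As for Cpt1a, its lowest cortex at E11.5 was Mboat7+/- replicate 2.

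The acyl-CoA dehydrogenases carry out the first step of each turn on chains of different length. Acadm (ENSMUSG00000062908), which acts on medium chains, was at 20.5 and 24.5 CPM in the E12.5 Mboat7+/- cortices and at 24.8 and 28.5 CPM in the Mboat7-/- cortices. The genotypes did not overlap, although the higher Mboat7+/- and the lower Mboat7-/- cortex were nearly level. The means were 22.5 ± 2.78 and 26.6 ± 2.65 CPM (SD, n = 2). The log2 fold change was 0.24 with a standard error of 0.13, and the log2 difference was 0.27 within replicate 1 and 0.22 within replicate 2. Cpt1a and Acadm were thus the 2 of 9 members tested at E12.5 (22.2%) with both Mboat7-/- cortices above, beside 16.9% of all genes, and no member had both below, beside 15.2% of all genes. These counts come from the values that chose the set, and nothing is read from them.

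The promoter stretch of Acadm is shown for comparison with that of Cpt1a, since both hold 1 copy of the motif. It is from RefSeq, build GRCm38.p6, minus strand, chr3:153944644-153944893, 250 bases, with the same capitals.
Acadm: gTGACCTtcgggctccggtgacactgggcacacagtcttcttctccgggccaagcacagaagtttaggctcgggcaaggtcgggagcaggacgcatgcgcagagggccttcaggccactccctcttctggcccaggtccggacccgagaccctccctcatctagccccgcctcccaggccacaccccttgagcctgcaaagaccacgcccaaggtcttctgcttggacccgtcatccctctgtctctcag
In Cpt1a the copy lies towards the start of transcription, and in Acadm at the far end of the window. Acadvl also held a copy, and its stretch is not shown. Whether the motif bears on the level of any member was not tested.

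At E11.5, Acadm was at 33.3 and 30.9 CPM in the Mboat7+/- cortices and at 35.7 and 31.0 CPM in the Mboat7-/- cortices. The genotypes overlapped, and the log2 fold change was 0.057 (SE 0.12, 95% interval -0.22 to 0.33, edgeR adjusted p = 0.873). Acadl, which acts on long chains, was at 43.3 and 39.9 CPM against 44.2 and 37.9 CPM at E11.5, with a log2 fold change of -0.017 (SE 0.11, edgeR adjusted p = 0.962). Acadvl, the very-long-chain dehydrogenase of the inner membrane, was at 48.3 and 46.9 CPM against 49.9 and 43.0 CPM, with a log2 fold change of -0.035 (SE 0.10, edgeR adjusted p = 0.912). For both genes the Mboat7-/- cortices enclosed the Mboat7+/- cortices, replicate 1 above and replicate 2 below.

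At E12.5, Acadl was at 22.7 and 24.0 CPM in the Mboat7+/- cortices and at 24.8 and 23.1 CPM in the Mboat7-/- cortices, a log2 fold change of 0.037 with a standard error of 0.11. Acadvl was at 30.3 and 33.1 CPM against 31.8 and 29.2 CPM, a log2 fold change of -0.056 with a standard error of 0.11. Neither gene separated the genotypes.

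Hadha and Hadhb encode the alpha and beta subunits of the mitochondrial trifunctional protein, which performs the last 3 steps of the turn on long chains. The genes lie head to head, and in RefSeq 272 bases separate their starts, so that both are read outwards from 1 short stretch. The part of it shown is from build GRCm38.p6, plus strand, chr5:30155163-30155247, 85 bases between both genes. It is printed because 1 sequence serves both subunits, and it has no capitals because it held no copy of AGGTCA or TGACCT.
Hadha and Hadhb: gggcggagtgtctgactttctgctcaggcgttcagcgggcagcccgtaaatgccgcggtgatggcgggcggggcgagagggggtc
At E12.5, Hadha (ENSMUSG00000025745) was at 111.5 and 119.0 CPM in the Mboat7+/- cortices and at 111.6 and 101.8 CPM in the Mboat7-/- cortices, a log2 fold change of -0.11 with a standard error of 0.095. Hadhb (ENSMUSG00000059447) was at 57.0 and 62.9 CPM against 60.2 and 52.3 CPM, a log2 fold change of -0.092 with a standard error of 0.11. Both subunits were highest in Mboat7+/- replicate 2 and lowest in Mboat7-/- replicate 2, and the genotypes overlapped for both.

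Within a cortex, the ratio of Hadhb to Hadha in CPM varied little at E12.5, being 0.511 and 0.529 for Mboat7+/- against 0.539 and 0.513 for Mboat7-/-. At E11.5 it was 0.273 and 0.278 against 0.327 and 0.277. The stages differ in annotation, provider and sequencer as well as in age, and these cannot be told apart as the source of the gap in the ratio. At E11.5, Hadha was at 156.2 and 154.7 CPM against 158.2 and 154.0 CPM, the narrowest spread among the 10 members relative to its level, with a log2 fold change of 0.0066 (SE 0.063, 95% interval -0.14 to 0.15, edgeR adjusted p = 0.975). Hadhb was at 42.7 and 42.9 CPM against 51.8 and 42.7 CPM, a log2 fold change of 0.14 (SE 0.11, edgeR adjusted p = 0.612), in which Mboat7-/- replicate 1 was high and the other 3 cortices were level.

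Hadh, the hydroxyacyl-CoA dehydrogenase for short and medium chains, was at 85.0 and 79.8 CPM in the E11.5 Mboat7+/- cortices and at 89.2 and 77.3 CPM in the Mboat7-/- cortices. The genotypes overlapped, with a log2 fold change of 0.016 (SE 0.090, edgeR adjusted p = 0.956). At E12.5 it was at 54.3 and 62.9 CPM against 58.5 and 47.1 CPM, a log2 fold change of -0.15 with a standard error of 0.12. Here too Mboat7+/- replicate 2 was highest and Mboat7-/- replicate 2 lowest.

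Ppara, the nuclear receptor, was close to the limit of detection. At E11.5 it had 20 and 20 counts in the Mboat7+/- cortices and 15 and 24 counts in the Mboat7-/- cortices, which is 0.923 and 0.755 CPM against 0.530 and 0.971 CPM. The genotypes overlapped, and the log2 fold change of -0.16 had a standard error of 0.59 (95% interval -1.52 to 1.19, edgeR adjusted p = 0.928). At E12.5 it had 6 and 2 counts against 5 and 2 counts and did not pass the filter, so it was not tested. In each genotype 1 cortex lay under the floor of 3 counts, and a difference in Ppara was not detectable at this depth.

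At E11.5, no member had an FDR under 0.05 in the edgeR quasi-likelihood test, a rule that 0% of all genes tested met, with or without requiring the log2 fold change to be at least 1 in size as well. No member had an unadjusted p under 0.05 either, by edgeR or by DESeq2, where 13.8% of all genes had one by edgeR. Of the 10 members 6 were higher in Mboat7-/-, a share of 60% beside 49% of all genes, and their median log2 fold change was 0.011 beside -0.0057 over all genes. At E12.5, 0 of the 9 members tested had an FDR under 0.05 by edgeR, beside 3 of all genes tested (0.0184%), all of which also reached 1 in the size of their log2 fold change. By unadjusted p under 0.05 in edgeR, or by FDR under 0.05 in DESeq2, the E12.5 count was 1, which is Cpt1a, the gene whose E12.5 difference chose the set. These E12.5 counts are therefore no test of Cpt1a or of the members, and nothing is read from them.

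Without Cpt1a, the 8 other members tested at E12.5 had log2 fold changes from -0.15 to 0.24 with a median of -0.052, 3 above zero and 5 below, and the sign of 5 of them turned when 1 cortex was left out. With Cpt1a, 4 of 9 (44.4%) were higher in Mboat7-/-, beside 51.2% of all genes. In size, 8 of the 8 had a log2 fold change under 0.5 times that of Cpt1a. At E11.5, the 9 other members ranged from -0.18 to 0.14 with a median of 0.0066.

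**Figure D2:**
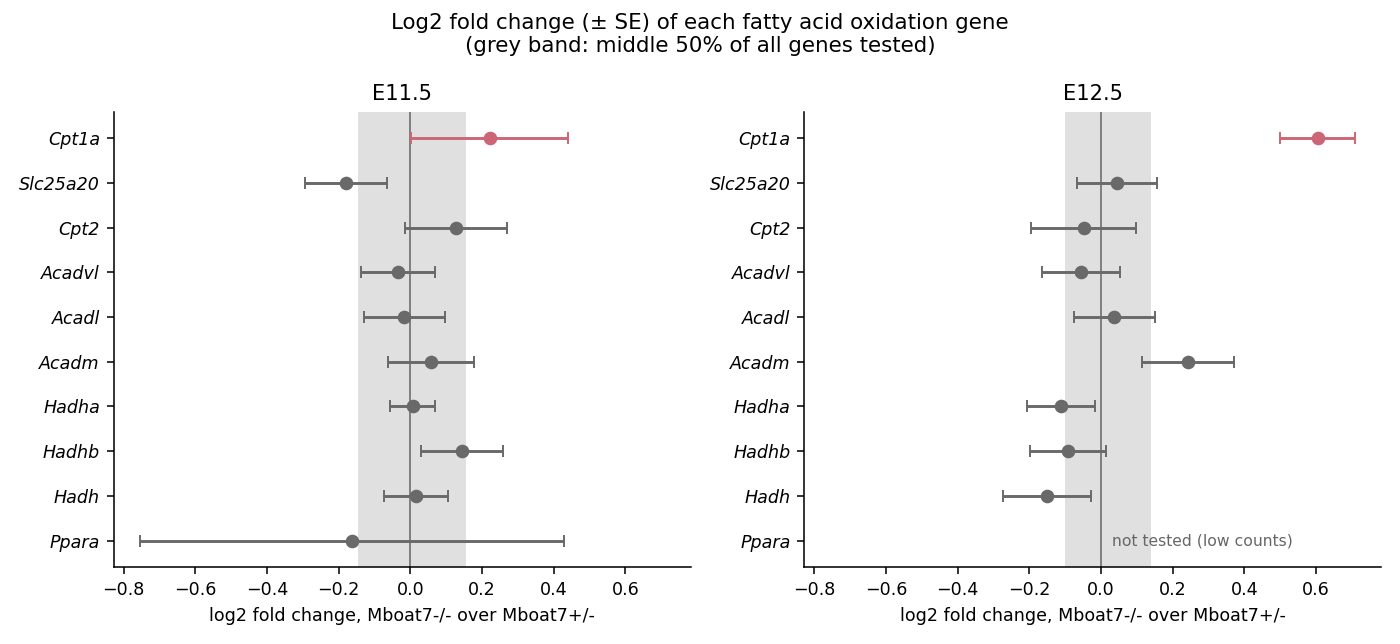
Log2 fold change of Mboat7-/- over Mboat7+/- (horizontal axis) of each oxidation gene (vertical axis) at E11.5 and E12.5; points are edgeR estimates, bars the standard error, and the grey band the range between the quartiles of all genes tested. Cpt1a is at 0.22 at E11.5 and at 0.60 at E12.5, where the other 8 members tested lie between -0.15 and 0.24; the E12.5 values are a description.

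The other members varied together between cortices in another way. Taken within the pairs of cortices that share a replicate number, 7 of the 8 members other than Cpt1a were higher in Mboat7-/- in replicate 1 and lower in replicate 2 at E12.5. The pairs rest on the number alone. Across genes, the deviations from the genotype mean in cortices of 1 number correlated at -0.20 at E12.5. The log2 difference ran from 0.0018 for Hadha to 0.20 for Slc25a20 in replicate 1, and from -0.054 for Acadl to -0.42 for Hadh in replicate 2. Of all genes tested at E12.5, 26.9% had this pattern, 23.4% were higher in both pairs, as Cpt1a and Acadm were, and 20.5% were lower in both. At E11.5, 5 of the 9 members other than Cpt1a, namely Acadl, Acadvl, Hadha, Hadhb and Hadh, were higher in Mboat7-/- in replicate 1 and lower in replicate 2, beside 18.4% of all genes. The summed CPM of the 10 members at E12.5 was 374 and 411 for Mboat7+/- against 413 and 379 for Mboat7-/-, and 502 and 469 against 521 and 467 at E11.5. The totals overlapped at both stages. The E12.5 values here belong to the contrast that chose the set and are a description.

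Levels can be compared between genes only per length, taken here as CPM per kilobase of the principal transcript and averaged over the 4 cortices of a stage. At E12.5, Hadh at 31.1, Hadhb at 28.4 and Hadha at 27.6 CPM per kilobase were the most abundant members, and the ranges of neighbours among them overlapped. Slc25a20 at 17.1 and Acadvl at 14.3 followed, each separate from the next. Acadl at 12.3, Acadm at 12.0, Cpt1a at 9.79 and Cpt2 at 7.22 then formed a run in which each range overlapped that of its neighbour, Cpt1a ranging from 7.35 to 12.2 CPM per kilobase with genotype included. Ppara was last at 0.0502 CPM per kilobase.

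At E11.5, Hadh at 46.3 and Hadha at 38.8 CPM per kilobase led, each separate from the next. Hadhb, Acadvl and Acadl lay between 21.6 and 22.0 with overlapping ranges, Slc25a20 at 16.7 and Acadm at 16.0 overlapped, and so did Cpt2 at 9.92 and Cpt1a at 7.20. Ppara was at 0.233 CPM per kilobase. With the merged exons of each gene as the length, the order of the enzymes changed (Acadl was first at E11.5 and Hadha at E12.5), whereas Cpt1a was the lowest of the 9 enzymes and carriers at both stages, with 4.06 and 5.53 CPM per kilobase. At E12.5 its range on this length, 4.15 to 6.88, overlapped that of Acadm, 5.25 to 7.29, so the last place was separate only at E11.5.

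The set was also placed beside 119 other genes in 9 lists drawn up by function. They cover the rest of the carnitine system and of fatty acid oxidation. The lists also hold related enzymes, such as that of leucine breakdown, and regulators, such as nuclear receptors. At E11.5, 107 were tested and 0 had an FDR under 0.05 by edgeR or by DESeq2. By edgeR, 9 (8.41%) had an unadjusted p under 0.05, 5 of them higher in Mboat7-/- and 4 lower. Over all genes, 7.94% were higher and 5.81% lower at that p by edgeR. By DESeq2, 7 had one, beside 1550 of all 14935 genes. At E12.5, 104 were tested, and again 0 had an FDR under 0.05 by either tool. By edgeR, 3 (2.88%) had an unadjusted p under 0.05, 2 higher and 1 lower, beside 4.11% of all genes, 2.76% higher and 1.35% lower. By DESeq2, 1 had one, beside 330 of all 16326 genes. Over these genes the median log2 fold change was -0.035 at the earlier stage and 2.7e-05 at the later. Both Mboat7-/- cortices lay above in 22.4% of them at E11.5 and below in 28.0%, beside 23.1% and 23.3% of all genes. At E12.5 the shares were 17.3% and 18.3%, beside 16.9% and 15.2%. Except for Cpt1b and Cpt1c, the pathway genes named in the next paragraphs were picked among those without overlap. That they are apart is therefore no result.

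**Figure D3:**
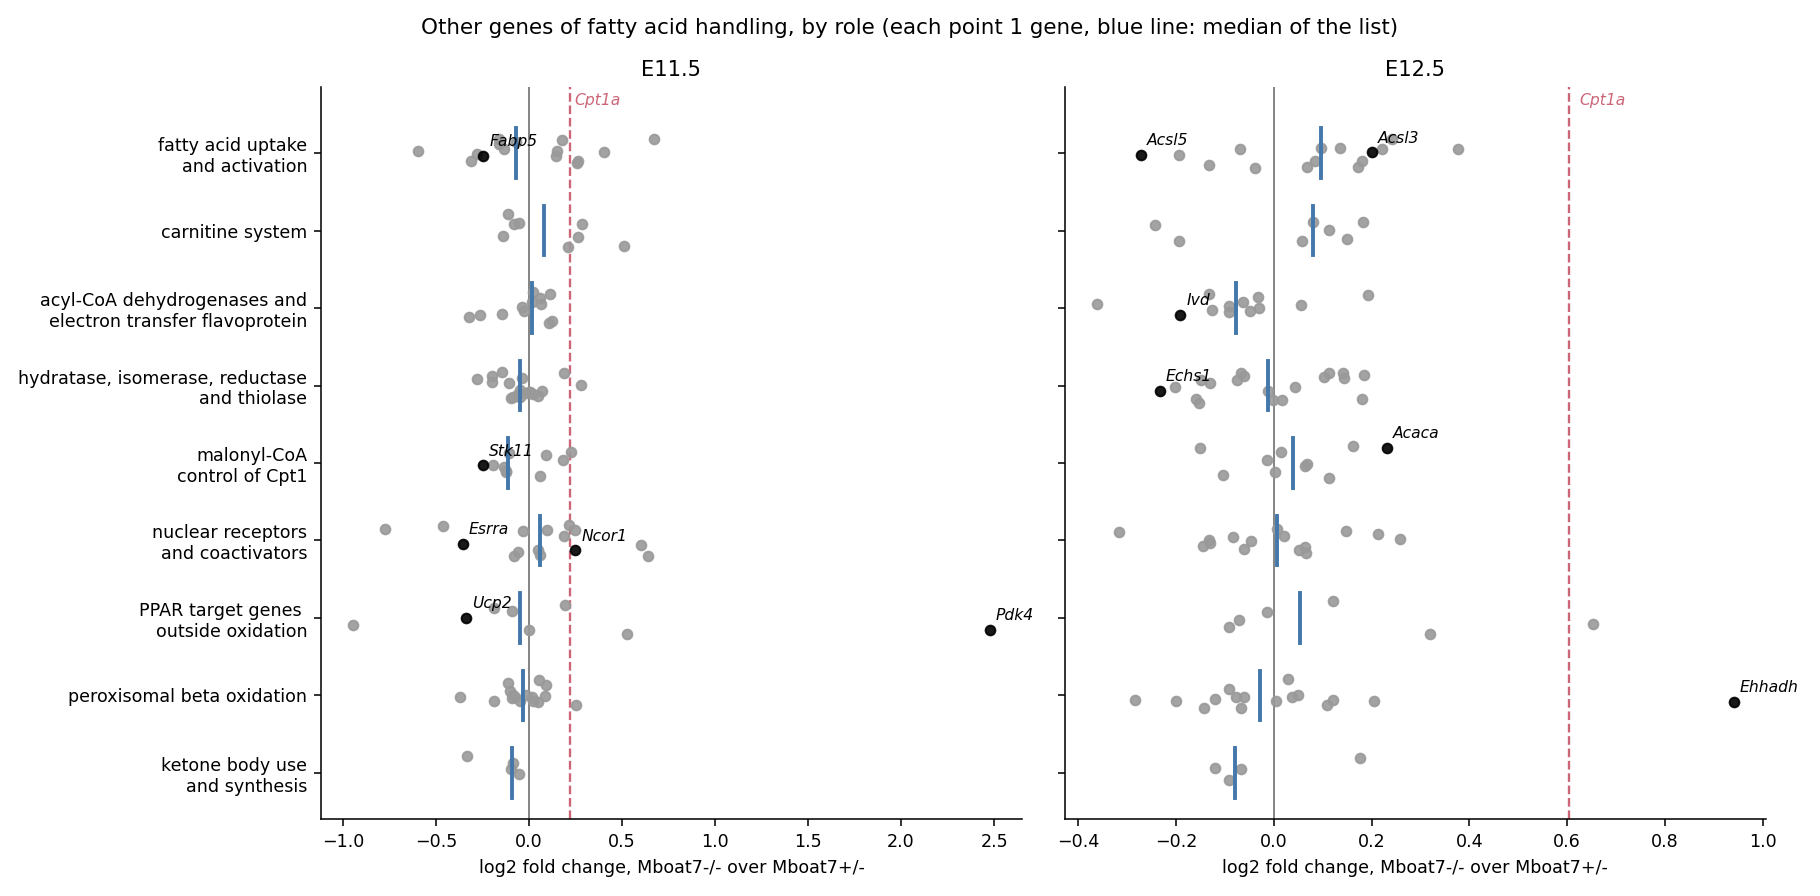
Log2 fold change of Mboat7-/- over Mboat7+/- (horizontal axes, scaled separately) of the other genes of fatty acid handling, 1 point per gene tested, by list (vertical axis); blue lines are list medians, the dashed line is Cpt1a, and black points are the genes named in the text. List medians lie between -0.11 and 0.078 at E11.5 and between -0.079 and 0.097 at E12.5, where Cpt1a is at 0.60.

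The other isoforms of the entry enzyme differed from Cpt1a. Cpt1c, the brain isoform of the endoplasmic reticulum, was at 20.4 and 19.7 CPM in the E12.5 Mboat7+/- cortices and at 18.0 and 23.8 CPM in the Mboat7-/- cortices, where the genotypes overlapped. Cpt1b, the muscle isoform, was at 1.78 and 1.67 CPM against 0.867 and 2.96 CPM. Per kilobase of the principal transcript, averaged over 4 cortices, Cpt1c was at 7.33 at E12.5 and 14.4 at E11.5, and Cpt1b at 0.627 and 0.153, beside 9.79 and 7.20 for Cpt1a. The carnitine list held 9 genes, of which 7 were tested at E12.5, and none of these had an unadjusted p under 0.05 by edgeR. Its summed level was 132 and 134 CPM in the Mboat7+/- cortices and 132 and 135 CPM in the Mboat7-/- cortices.

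Fatty acid uptake and activation comes before the CPT1 step. Acsl3, an acyl-CoA synthetase, was at 89.7 and 93.3 CPM in the E12.5 Mboat7+/- cortices and at 108.1 and 102.1 CPM in the Mboat7-/- cortices, a log2 fold change of 0.20 (SE 0.091, edgeR adjusted p = 0.958). Acsl5, another synthetase, was at 22.6 and 25.3 CPM against 21.5 and 18.2 CPM, a log2 fold change of -0.27 (SE 0.13, edgeR adjusted p = 0.958). The synthetases were thus apart in opposite directions. At E11.5, Fabp5, a fatty acid-binding protein, was at 231 and 240 CPM against 200.1 and 198 CPM, with a log2 fold change of -0.24 (SE 0.061, edgeR adjusted p = 0.197). Of the 15 genes of this list tested at E12.5, 10 were higher in Mboat7-/- and 5 lower, and at E11.5 the counts were 7 and 8 of 15.

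In the list of other acyl-CoA dehydrogenases, Ivd, which acts in leucine breakdown and not on fatty acids, was at 65.7 and 67.0 CPM in the E12.5 Mboat7+/- cortices and at 57.4 and 58.8 CPM in the Mboat7-/- cortices, a log2 fold change of -0.19 (SE 0.092, edgeR adjusted p = 0.958). Echs1, the short-chain enoyl-CoA hydratase, was at 77.8 and 89.8 CPM against 74.8 and 67.8 CPM, a log2 fold change of -0.23 (SE 0.10, edgeR adjusted p = 0.958). Both were named for being apart, here with Mboat7-/- lower, whereas Cpt1a was higher. Among the other acyl-CoA dehydrogenases and the electron transfer flavoprotein, 10 of 12 genes were lower in Mboat7-/- at E12.5 and 5 of 12 at E11.5, with medians of -0.077 and 0.018. Of the 19 hydratases, isomerases, reductases and thiolases, 11 were lower at E12.5 and 12 at E11.5, with medians of -0.012 and -0.049.

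Malonyl-CoA is the known brake on CPT1. Acaca, the acetyl-CoA carboxylase that makes it for lipid synthesis, was at 185 and 189 CPM in the E12.5 Mboat7+/- cortices and at 225 and 214 CPM in the Mboat7-/- cortices, a log2 fold change of 0.23 (SE 0.093, edgeR adjusted p = 0.958). Acaca was apart in the same direction as Cpt1a, without passing the test. Stk11, the LKB1 kinase that activates AMPK, was at 149 and 147 CPM against 123 and 126 CPM at E11.5, a log2 fold change of -0.25 (SE 0.065, edgeR adjusted p = 0.206). It passed in 1 of the 10 alternatives, without Mboat7-/- replicate 2 (adjusted p = 0.0497), over which its adjusted p ranged up to 0.762. Of the 10 genes of malonyl-CoA control tested, 7 were higher in Mboat7-/- at E12.5 and 4 at E11.5.

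Of the 15 nuclear receptors and coregulators tested at E11.5, 4 were higher and 1 was lower in Mboat7-/- with an unadjusted p under 0.05 by edgeR. Of all genes tested, 7.94% were higher and 5.81% lower at that p. Only Ncor1 and Esrra of this list came under the rule for named genes. Ncor1, a corepressor of nuclear receptors, was at 207 and 208 CPM in the Mboat7+/- cortices and at 246 and 248 CPM in the Mboat7-/- cortices, a log2 fold change of 0.25 (SE 0.059, edgeR adjusted p = 0.190). Esrra, a receptor that activates mitochondrial genes, was at 28.2 and 32.5 CPM against 24.5 and 23.0 CPM, a log2 fold change of -0.35 (SE 0.13, edgeR adjusted p = 0.293). At E12.5, none of the 15 genes of this list tested had an unadjusted p under 0.05 by edgeR, and the list median was 0.0065.

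PPAR targets outside oxidation lay on both sides of zero. At E11.5, Pdk4, the kinase that inhibits pyruvate dehydrogenase, had 5 and 4 counts in the Mboat7+/- cortices and 22 and 34 counts in the Mboat7-/- cortices. Both Mboat7-/- cortices were higher, with a fitted log2 fold change of 2.48 (SE 0.71, edgeR adjusted p = 0.219) that rests on few counts. Pdk4 passed the filter through the Mboat7-/- cortices alone, so it could enter the test only with a difference in this direction. Ucp2, a mitochondrial carrier, was at 80.6 and 64.6 CPM against 58.5 and 56.1 CPM, a log2 fold change of -0.34 (SE 0.11, edgeR adjusted p = 0.250). Of the 8 genes of this list tested at E11.5, 3 were higher and 5 lower, and of the 6 tested at E12.5, 3 were higher and 3 lower. Their E12.5 log2 fold changes ran from -0.092 to 0.65, the highest being larger than that of Cpt1a. Both Mboat7-/- cortices were above for 2 of the 6 and below for 0, beside 16.9% and 15.2% of all genes. None of the 6 had an unadjusted p under 0.05 by edgeR. In the peroxisomal list, Ehhadh, the bifunctional enzyme of peroxisomal oxidation, was at 1.01 and 0.925 CPM against 1.65 and 2.07 CPM at E12.5, a log2 fold change of 0.94 (SE 0.36, edgeR adjusted p = 0.958), with counts from 20 to 47. Of the 16 peroxisomal genes tested, 8 were higher and 8 lower at E12.5. Of the 4 genes of ketone body use, 1 was higher at E12.5 and 0 at E11.5.

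The pattern of Cpt1a over the 8 cortices was then compared with that of 12946 genes that passed the filter at both stages and had a single entry in each table. The measure was the root mean square difference in log2(CPM + 0.5), each gene centred on its mean within a stage, and it includes the values that chose the set, so the order is a description. The nearest genes were Scd1 at a distance of 0.0646, Jdp2 at 0.0677, Snx20 at 0.0929, Ikzf1 at 0.0962 and Birc3 at 0.103. Snx20 was near the floor, with 0.288 and 0.231 CPM in the E12.5 Mboat7+/- cortices against 0.520 and 0.530 CPM in the Mboat7-/- cortices, and passed the E12.5 filter through the latter alone. Scd1, a stearoyl-CoA desaturase of fatty acid synthesis, was at 39.1 and 43.3 CPM in the E12.5 Mboat7+/- cortices and at 68.0 and 61.7 CPM in the Mboat7-/- cortices, and at 103 and 70.3 CPM against 114 and 82.1 CPM at E11.5. Like Cpt1a, it was apart at E12.5 and was lower in replicate 2 of both genotypes at E11.5.

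Of the members, Acadm ranked 162 of 12946 at a distance of 0.204 and Acadl 1330 at 0.263. A gene with no variation at all would lie 0.300 from Cpt1a, the root mean square of Cpt1a itself. Cpt2 at 0.289 and Acadvl at 0.299 were little nearer than that, and Hadhb at 0.305, Slc25a20 at 0.307, Hadha at 0.326 and Hadh at 0.329 were farther. Ppara was not ranked, having failed the filter at E12.5.

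**Figure D4:**
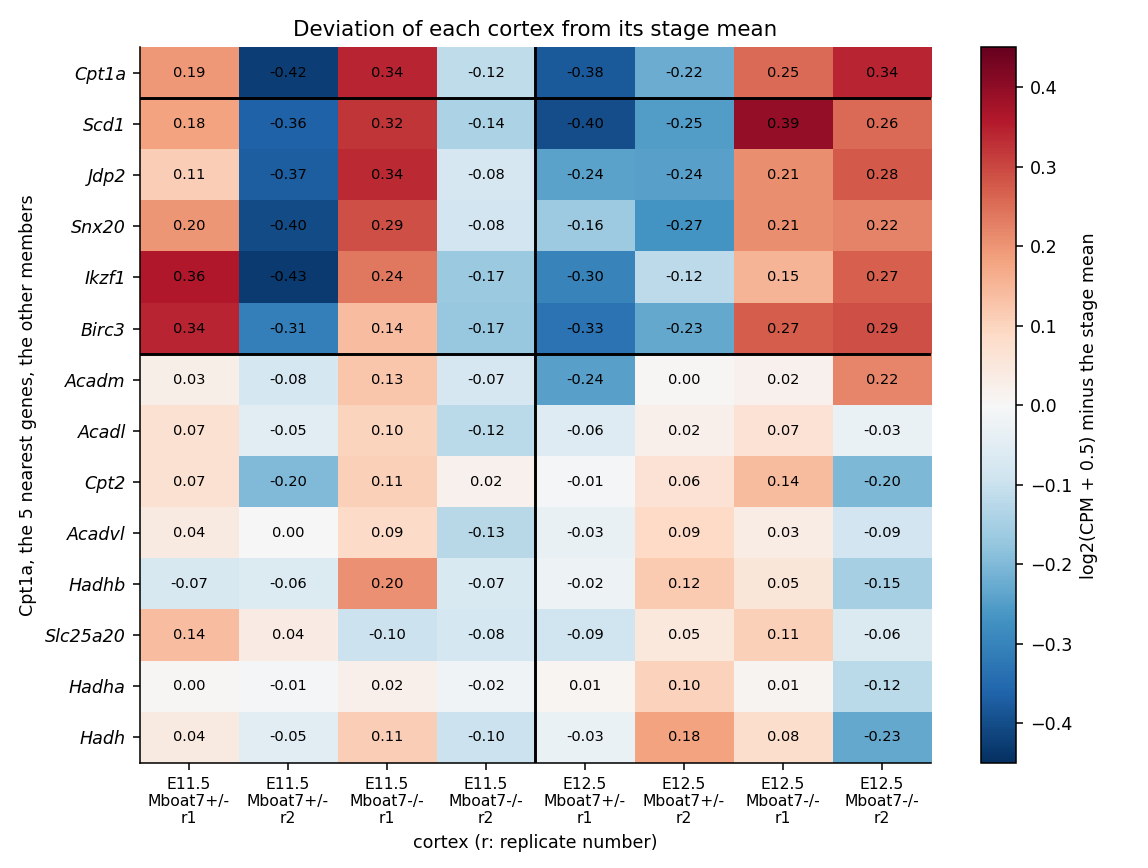
Deviation of log2(CPM + 0.5) from the stage mean (colour and printed value) in each of the 8 cortices (horizontal axis) for Cpt1a, the 5 genes nearest to it and the 8 ranked members (vertical axis, nearest first within each block). Cpt1a and its nearest genes are negative in Mboat7+/- and positive in Mboat7-/- at E12.5 and lowest in Mboat7+/- replicate 2 at E11.5; of the members, Acadm is nearest and Hadh farthest.

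Markers of the cortex itself and of other cell types are given by genotype beside these results. No marker passed the test, and the smallest edgeR adjusted p was 0.958 at E12.5 and 0.171 at E11.5. Of all genes tested at E12.5, 51.2% were higher in Mboat7-/-. By edgeR, 2.76% were higher and 1.35% lower there with an unadjusted p under 0.05. At E11.5 these shares were 49%, 7.94% and 5.81%. At E12.5, when Cpt1a was higher, 5 of 6 microglia markers were higher in Mboat7-/-, 2 of them with an unadjusted p under 0.05, and their summed level was 37.0 and 30.8 CPM in the Mboat7+/- cortices and 38.1 and 43.3 CPM in the Mboat7-/- cortices. Neuronal markers were higher for 6 of 7 genes at E12.5, 3 of them with an unadjusted p under 0.05 and with a median log2 fold change of 0.22, while their summed level overlapped at 2675 and 2578 CPM against 2636 and 2696 CPM. Markers of intermediate progenitor cells were higher for 4 of 4 genes (432 and 435 CPM against 448 and 484 CPM) and endothelial markers for 7 of 8 (265 and 256 CPM against 270.4 and 283 CPM), none with an unadjusted p under 0.05. Blood markers were lower in Mboat7-/- for 9 of 9 genes at E12.5, 7 of them with an unadjusted p under 0.05, with a summed level of 5113 and 7489 CPM against 5217 and 3558 CPM. At E12.5, Mboat7+/- replicate 2 was highest and Mboat7-/- replicate 2 lowest for blood, as for Acadvl, Hadha, Hadhb and Hadh. At E11.5, blood was lower for 6 of 6 genes tested (6930 and 5214 CPM against 3631 and 3863 CPM), 7 of 8 mesenchyme markers were higher, 6 of them with an unadjusted p under 0.05 (1546 and 1502 CPM against 1735 and 1925 CPM), 7 of 7 neuronal markers were lower (1380 and 1559 CPM against 885 and 1438 CPM) and so were 4 of 4 markers of intermediate progenitor cells (400.0 and 422 CPM against 299 and 387 CPM). Cortex markers were lower at E11.5 for 5 of 5 genes, 3 of them at that p (1066 and 1157 CPM against 825 and 1023 CPM). Radial glial markers were lower for 6 of 7 and ventral telencephalon markers for 4 of 5, each with 2 at that p. At E12.5, cortex markers were higher for 4 of 5, radial glial markers for 3 of 7 and ventral ones for 0 of 5. Pax6 was higher there (log2 fold change 0.22) and Nes lower (-0.32). Liver and adipose tissue, where fatty acid oxidation genes are known to be abundant, were near 0 by their defining markers, since Alb had at most 4 counts in any cortex, Adipoq at most 1 and Plin1 at most 4. Within that list, Ttr, which the choroid plexus also makes, had 2220 to 5730 counts per cortex at E12.5. The part of these cell types in the values of Cpt1a and the other members was not tested.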

How the data were processed

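The authors deposited, for each stage, a count table that gives the raw reads of every gene, 1 column per cortex, not normalized. Per the labels, libraries were poly(A)-selected and directional. The submitters' processing notes name HISAT2, Subread and the builds mm10 and GRCm39, without versions or which table used which. The E11.5 table lists symbols and the E12.5 table Ensembl identifiers, matched to symbols through GENCODE M21 and a table of gene names (99.0% of the E12.5 counts). A separate fit for either stage used edgeR 4.0.16 under R 4.3.3 (filterByExpr with a minimum count of 10, TMM factors on the genes that passed the filter with library sizes from all listed counts, glmQLFit and glmQLFTest, prior count 0.125, Benjamini-Hochberg adjustment over all genes tested). The call rule was an FDR under 0.05. Standard errors are the log2 fold change over the square root of F. Embryos are separate animals, with 2 per group, and intervals, floors and p-values cover no more than these embryos. All pairs of cortices differed beyond sampling noise (chi-square per degree of freedom 4.69 to 25.9).

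The members and lists were chosen with earlier results of these data known. The named genes are all members, every other pathway gene with an FDR under 0.05 at either stage (there was none by edgeR), at each stage the 6 with the smallest unadjusted p among those without overlap between genotypes, the 5 genes nearest to Cpt1a in pattern, and Mboat7 and Xist as checks. Cpt1b and Cpt1c were named after their values were seen, as isoforms of Cpt1a, and so were the genes that alternatives called. Results for a few genes are not reported here. Settings tried in turn were upper-quartile and RLE factors, DESeq2 1.42.0, no filter, a filter of 10 counts in all cortices, a block on the replicate number, and leaving out each cortex, with a crossed pairing at E12.5 added after the data were seen. Cortices were paired by the replicate number in the sample titles, which do not say whether cortices of 1 number were handled together. Across genes, the deviations from the genotype mean in cortices of 1 number correlated at 0.083 for E11.5 and -0.20 for E12.5. On simulated data with 200 changed genes, the test found 148 of 200 at E11.5 (14935 genes) and 141 of 200 at E12.5 (16326 genes). These counts pool several simulated sizes of difference, the smallest close to that of Cpt1a at E12.5, and the share found at each size is not given here. Differences as small as those of the other members were not simulated. Of 119 pathway genes, Tmlhe was not matched at E12.5. Promoters are from RefSeq (10 of 10 members matched). Python 3.11.15, pandas 2.3.3 and matplotlib 3.10.9 were used.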

Additional observations from a re-analysis of the deposited data

Results flagged for a closer look

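Acsl5, the acyl-CoA synthetase, was higher in both Mboat7-/- cortices than in both Mboat7+/- cortices at E11.5 (log2 fold change 0.18) and lower in both at E12.5 (-0.27). Ivd, the isovaleryl-CoA dehydrogenase, had the same reversal, from 0.065 (E11.5) to -0.19 (E12.5). The difference between the stages was not tested for either gene, since each stage was fitted alone and the stages differ in provider, sequencer and annotation.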

How the results depend on the processing

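Over the 10 alternatives at E11.5, 0 members were called, and the median log2 fold change of the members ranged from -0.039 to 0.10 with a cortex left out. Of the other pathway genes, 0 to 4 were called at E11.5 with a cortex left out, the 4 being Acss1, Bdh1, Fabp7 and Stk11 without Mboat7-/- replicate 2, and 0 to 1 at E12.5, the 1 being Slc27a1 without Mboat7-/- replicate 1. At E12.5, the member count was 1 (Cpt1a) under DESeq2, and 0 to 1 with a cortex left out, Cpt1a being the 1 without Mboat7+/- replicate 2, without Mboat7-/- replicate 1 or without Mboat7-/- replicate 2. Since the E12.5 difference of Cpt1a chose the set, these E12.5 counts are a description and no test. The log2 fold change of Cpt1a at E12.5 stayed between 0.53 and 0.68, and the median of the members ranged from -0.12 to 0.087 with a cortex left out, the highest without Mboat7-/- replicate 2. A cortex left out leaves 1 sample in a group, which is then assumed to vary like the other group.

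With the replicate number as a block, 0 members and 0 pathway genes were called at either stage (smallest adjusted p 0.377 and 0.0565 at E11.5, 1.00 for the pathway at E12.5). The block thus changed no call among members and pathway genes, whereas it moved the counts over all genes given below. With the crossed pairing at E12.5, chosen after the data were seen, 1 member (Cpt1a, again no test) and 0 pathway genes were called.

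Over all genes tested, the count called moved widely. At E11.5 it was 0, and 178 under DESeq2, 317 without a filter, 2 with at least 10 counts in every cortex, 349 with the block and 1 to 1180 with a cortex left out (1180 without Mboat7-/- replicate 2). At E12.5 it was 3, and 10 under DESeq2, 0 without a filter, 0 with at least 10 counts in every cortex, 21 with the block, 151 with the crossed pairing and 33 to 301 with a cortex left out (301 without Mboat7-/- replicate 1).

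At E11.5 the direction of 8 members turned when a cortex was left out: the range was -0.055 to 0.57 for Cpt1a, -0.048 to 0.15 for Acadm, -0.13 to 0.089 for Acadl, -0.15 to 0.068 for Acadvl, -0.012 to 0.025 for Hadha, -0.00098 to 0.27 for Hadhb, -0.091 to 0.11 for Hadh, and -0.65 to 0.21 for Ppara. At E12.5 the direction of 5 members turned, with ranges of -0.24 to 0.12 for Cpt2, -0.050 to 0.13 for Slc25a20, -0.019 to 0.087 for Acadl, -0.12 to 0.0075 for Acadvl and -0.20 to 0.0071 for Hadhb. At E11.5, upper-quartile normalization turned Hadha to -0.0093 and Hadh to -0.00048. The cause was not tested. With 2 embryos per group, the narrowest 95% interval of a member at E11.5 was that of Hadha, -0.14 to 0.15 on the log2 scale.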
